A study of Homo sapiens with 12 samples.

Results

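The genes described here are the 10 G1 cyclins and their kinases: the D cyclins CCND1, CCND2 and CCND3, their partner kinases CDK4 and CDK6, the E cyclins CCNE1 and CCNE2, their partner kinase CDK2, and the regulators CDC25A and SKP2. They were taken by symbol from a table of 36615 genes, and all 10 are in it. Of the 10, 9 passed a filter on low values, as did 13728 genes of the table. The study measured poly(A) RNA of HCT116, a line of human colorectal cancer cells, in 4 groups with 3 libraries each. The groups were p53-/- cells depleted of Mina53 (KD), p53-/- cells with a scrambled control (scr), p53+/+ cells depleted of Mina53 and p53+/+ cells with the scrambled control. The labels do not give the depletion reagent, its duration, or whether replicates were separate cultures. The p-values thus set differences between group means against the spread of libraries within groups, and that spread can be technical only. The p53-/- and p53+/+ cells are 2 lines, and the p53 genotype cannot be told apart from other differences between them. Fewer cells in a cell cycle phase and less RNA per cell cannot be told apart in bulk RNA either.

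As background, cells commit to DNA replication in G1. D cyclins, which are made in response to growth factors, bind CDK4 or CDK6 and start the phosphorylation of the retinoblastoma protein. E cyclins with CDK2 complete it and release E2F factors, which switch on genes of S phase. CDC25A is the phosphatase that removes inhibitory phosphates from CDK2. SKP2 is the F-box subunit of a ubiquitin ligase that marks the CDK inhibitor p27 (CDKN1B) for destruction. Wild-type p53 restrains the system by inducing p21 (CDKN1A), an inhibitor of the CDK2 complexes. Mina53, the product of RIOX2, is a nucleolar oxygenase of the JmjC family.

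Levels are in FPKM (sequenced fragments relative to transcript length and library size), so levels of different genes can be set side by side. Depth is unknown, and totals per library lay between 348822 and 372821 FPKM. RIOX2 was at 2.11, 2.21 and 1.75 FPKM in p53-/- KD libraries, against 9.31, 8.89 and 9.07 in p53-/- scr libraries. It was at 3.04, 2.63 and 2.48 FPKM in p53+/+ KD libraries, against 7.44, 7.27 and 7.77 in p53+/+ scr libraries. The targeted RNA was thus low in every KD library, and more so in p53-/- cells (log2 difference of the effects -0.55, adjusted p = 0.00142). CDKN1A stood at 29.2 to 32.5 FPKM in p53-/- KD and 13.9 to 14.9 in p53-/- scr libraries, against 361.7 to 369.2 in p53+/+ KD and 117.7 to 121.6 in p53+/+ scr libraries. Of 7 epithelial markers in the table, 6 passed the filter, with KRT8 at 876 to 1107 FPKM and EPCAM at 84.3 to 112 FPKM, while the intestinal marker VIL1 was at most at 0.036 FPKM. The epithelial list summed to 1234 to 1274 FPKM in p53-/- KD and 1451 to 1559 in p53-/- scr libraries. In p53+/+ cells it summed to 1369 to 1468 FPKM in KD and 1745 to 1769 in scr libraries. KD and scr did not overlap within a line, and most of the sum was KRT8 and KRT18 (245 to 527 FPKM). Of fibroblast, immune and endothelial markers, COL1A1 and CD68 passed the filter, and the defining COL1A2, COL3A1, PTPRC and CDH5 were all under 0.04 FPKM. The fibroblast list summed to 11.7 to 12.2 FPKM in p53-/- KD, 7.04 to 7.63 in p53-/- scr, 10.2 to 10.7 in p53+/+ KD and 6.76 to 7.43 in p53+/+ scr libraries, nearly all of it COL1A1. The immune list, nearly all of it CD68, summed to 6.93 to 8.37 FPKM in p53-/- KD, 8.12 to 9.83 in p53-/- scr, 3.97 to 4.93 in p53+/+ KD and 7.23 to 8.72 in p53+/+ scr libraries. The part of these marker levels in the results was not tested. Mitochondrial protein-coding transcripts took 14.1% ± 0.284 of the total in p53-/- KD and 10.5% ± 0.476 in p53-/- scr, 18.6% ± 0.737 in p53+/+ KD and 14.1% ± 0.270 in p53+/+ scr libraries (SD, n = 3). The part of that share in the results was not tested beyond a refit that left out 17 mitochondrial genes, ribosomal RNA included, and rescaled each library.

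Depletion of Mina53 split the group in both lines. CCND1, CCND3 and CDK6 rose, with a CCND3 call in p53-/- cells that several alternatives ended, whereas CDK2, CDK4 and SKP2 fell. In p53-/- cells CDC25A rose too and CCNE1 fell, for a total of 4 rises and 4 falls among 9 tested. In p53+/+ cells CCNE2 and CDC25A fell, which makes 3 higher and 5 lower, with a CDC25A call that several alternatives ended. Calls were made with limma on log2(FPKM + 1) at a Benjamini-Hochberg adjusted p under 0.05 over all genes tested. In p53-/- cells that threshold called 58.8% of all genes, 28.9% higher and 29.9% lower. In p53+/+ cells it called 60.7%, 28.5% higher and 32.2% lower. With most genes called, the number of members called says little, so sizes are given as well. The log2(FPKM + 1) scale understates changes of low genes, and the part of level in the sizes below was not tested. Members were chosen with earlier results of these data known. The median absolute log2 fold change of the members was 0.69 in p53-/- and 0.63 in p53+/+ cells, beside 0.23 and 0.25 over all genes. A called change of more than 0.5 was found for 6 of 9 members in each line, beside 17.5% of all genes in p53-/- and 20.3% in p53+/+ cells. With mitochondrial genes left out, calls over all genes in p53+/+ cells were 4955 higher and 3407 lower, against 3916 and 4418 with them. In p53-/- cells they were 4487 higher and 3572 lower without those genes, against 3968 and 4103 with them. Members called higher or lower by more than 0.5 kept their calls without mitochondrial genes.

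**Figure D1:**
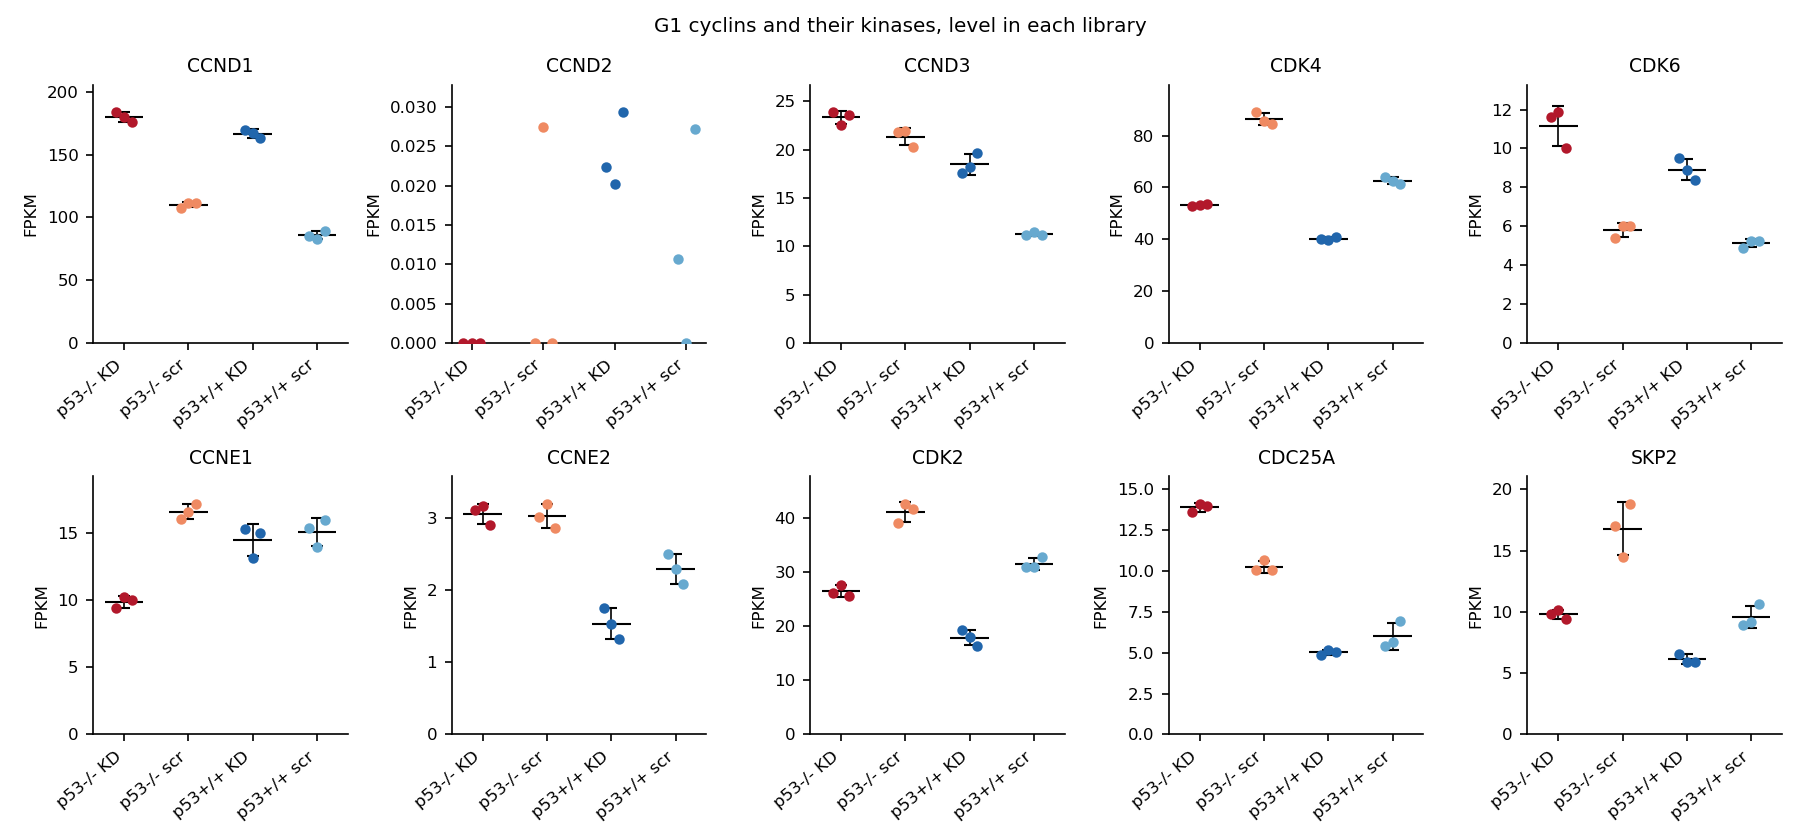
Level of each of the 10 members in FPKM (vertical axis, linear, from 0) in the 12 libraries, by group. Points are libraries, horizontal lines are means and bars are SD (n = 3), which are left out for CCND2 because most of its values are at or near 0. CCND1 and CDK6 are higher and CDK2, CDK4 and SKP2 lower in the KD libraries of either line, while CCNE1, CCNE2 and CDC25A differ between the lines.

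Of the D cyclins, CCND1 rose in both lines, CCND3 rose in p53+/+ cells and weakly in p53-/- cells, and CCND2 could not be tested. CCND1, amplified or induced in many carcinomas, was the most abundant member in every library. CCND1 was at 183.8, 180.2 and 176 FPKM in p53-/- KD libraries, against 108, 112 and 111 in p53-/- scr libraries. It was at 169.6, 168 and 163 FPKM in p53+/+ KD libraries, against 85.2, 83.0 and 89.6 in p53+/+ scr libraries. All KD libraries lay above all scr libraries, whichever the line. The rise was 1.63-fold in p53-/- cells (log2 fold change 0.70, standard error 0.034, adjusted p = 8.33e-09) and 1.94-fold in p53+/+ cells (log2 fold change 0.95, standard error 0.034, adjusted p = 6.10e-10). In p53-/- cells 7.98% of all genes changed by more than CCND1 did.

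The rise of CCND1 was the smaller one in p53-/- cells (log2 difference -0.25, 95% interval -0.35 to -0.14, adjusted p = 0.00216). Its level in scr cells was already 1.28 times as high in p53-/- as in p53+/+ cells, with no overlap of libraries (log2 fold change 0.36, adjusted p = 1.90e-06). After depletion the lines were close, with 180.1 ± 3.83 FPKM in p53-/- KD and 167 ± 3.37 in p53+/+ KD libraries (log2 fold change 0.11, adjusted p = 0.0127). That last call was lost with another scaling of the libraries (log2 fold change 0.05, adjusted p = 0.163) and with mitochondrial genes left out (adjusted p = 0.0506). It was lost too without p53-/- KD replicate 1 (adjusted p = 0.0525), and over all alternatives the adjusted p ran from 0.00745 to 0.163. CCND1 overlaps LTO1 on the other strand in GENCODE release 29. LTO1 stood between 4.32 and 5.38 FPKM in the group means, well under CCND1.

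CCND3, the D cyclin of broadest expression, followed CCND1 in p53+/+ cells and barely moved in p53-/- cells. It was at 23.9, 22.5 and 23.6 FPKM in p53-/- KD libraries, against 21.8, 21.9 and 20.3 in p53-/- scr libraries. It was at 17.5, 18.2 and 19.7 FPKM in p53+/+ KD libraries, against 11.2, 11.4 and 11.2 in p53+/+ scr libraries. The p53+/+ scr libraries stand alone at the low end, and the other 3 groups lie within 17.5 to 23.9 FPKM. CCND3 rose 1.64-fold in p53+/+ cells (log2 fold change 0.67, standard error 0.047, adjusted p = 1.61e-07). In p53-/- cells it rose 1.09-fold (log2 fold change 0.13, standard error 0.047, adjusted p = 0.0372), a call that several alternatives ended, with adjusted p from 0.00527 to 0.141. The effect was lower in p53-/- cells by -0.54 (95% interval -0.69 to -0.40, adjusted p = 0.000108). In scr cells CCND3 was 1.89 times as high in p53-/- as in p53+/+ cells (log2 fold change 0.86, adjusted p = 1.73e-08).

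For CCND3 in p53-/- cells, the adjusted p was 0.0692 when low genes were kept, 0.0960 with the other scaling, 0.0501 with no variance trend and 0.0628 with the replicate number as a block. It was 0.112 without p53-/- KD replicate 1, 0.0890 without p53-/- KD replicate 3 and 0.141 without p53-/- scr replicate 3. Pseudogenes named for CCND3 and CDK4 are annotated in GENCODE release 29, and reads shared with them could not be separated here.

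CCND2, the D cyclin of lymphoid and germ cells among others, was close to absent and did not pass the filter. It is listed at 0 in all p53-/- KD libraries. The highest of the other 9 libraries was at 0.0293 FPKM, in the p53+/+ KD group. No fold is given for it.

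The CDK partners of the D cyclins moved in opposite directions. CDK6, a kinase of haematopoietic and many epithelial cells, was at 11.6, 11.9 and 10.003 FPKM in p53-/- KD libraries, against 5.37, 6.02 and 6.004 in p53-/- scr libraries. It was at 9.49, 8.88 and 8.37 FPKM in p53+/+ KD libraries, against 4.91, 5.23 and 5.25 in p53+/+ scr libraries. The KD and scr libraries did not overlap in either line. CDK6 rose 1.93-fold in p53-/- cells (log2 fold change 0.84, standard error 0.069, adjusted p = 6.77e-07) and 1.74-fold in p53+/+ cells (log2 fold change 0.69, standard error 0.069, adjusted p = 2.88e-06). The difference of 0.15 between these effects did not pass (95% interval -0.07 to 0.36, adjusted p = 0.275).

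CDK4, the other partner of the D cyclins, was much the more abundant of the pair. It was at 52.96, 53.1 and 53.6 FPKM in p53-/- KD libraries, against 89.0, 85.5 and 84.5 in p53-/- scr libraries. It was at 40.2, 39.6 and 40.9 FPKM in p53+/+ KD libraries, against 64.0, 62.5 and 61.3 in p53+/+ scr libraries. The groups were fully separate, in the order p53-/- scr, p53+/+ scr, p53-/- KD and p53+/+ KD from high to low. CDK4 fell to 0.616 of the scr level in p53-/- cells (log2 fold change -0.69, standard error 0.031, adjusted p = 4.33e-09). It fell to 0.643 of the scr level in p53+/+ cells (log2 fold change -0.63, standard error 0.031, adjusted p = 7.70e-09). The effects differed by -0.06 (95% interval -0.16 to 0.03, adjusted p = 0.292), so a gap of more than 0.16 lies outside that interval. With mitochondrial genes left out the difference was -0.11. Over all alternatives the adjusted p of the difference ran from 0.0503 to 0.514.

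CDK4 is a textbook target of MYC, which binds the E-box CACGTG, so its start region is shown. Promoter sequences from RefSeq (GRCh38.p14, 250 bases before the start) matched 6 of the 10 members, and CCND1, CCND2, CCNE2 and CDK2 had no entry. The E-box, a palindrome and so the same on both strands, occurs 3 times before CDK4 and in no other matched promoter of a member. Of 35116 promoters searched, 6.34% hold it at least 1 time and 0.0797% at least 3 times. The window of CDK4 lies on the minus strand at chr12:57752311-57752560, and capitals mark the E-boxes, which begin 216, 196 and 101 bases before the start.
CDK4: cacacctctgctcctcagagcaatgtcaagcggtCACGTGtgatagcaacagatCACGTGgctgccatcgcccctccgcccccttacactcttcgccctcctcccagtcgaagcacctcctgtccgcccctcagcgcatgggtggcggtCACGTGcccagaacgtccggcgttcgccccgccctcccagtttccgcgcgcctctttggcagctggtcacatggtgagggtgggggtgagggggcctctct
MYC was added after its values were seen, because of these words. MYC was at 39.1 ± 1.70 FPKM in p53-/- KD and 48.3 ± 0.948 in p53-/- scr libraries, and at 82.2 ± 2.39 in p53+/+ KD and 91.4 ± 3.08 in p53+/+ scr libraries (SD, n = 3). MYC fell on depletion by 0.30 in p53-/- cells (adjusted p = 4.01e-05) and by 0.15 in p53+/+ cells (adjusted p = 0.00531) on the log2 scale, and was lower in p53-/- than in p53+/+ scr cells (log2 fold change -0.91), where CDK4 was higher. The part of MYC in the CDK4 levels was not tested. CDK4 overlaps TSPAN31 on the other strand, which was at 1.97 to 2.96 FPKM in the group means.

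The E cyclins responded in different lines. CCNE1 fell in p53-/- cells and CCNE2 fell in p53+/+ cells. CCNE1 was at 9.40, 10.2 and 10.002 FPKM in p53-/- KD libraries, against 16.04, 16.5 and 17.2 in p53-/- scr libraries. It was at 15.3, 13.1 and 14.97 FPKM in p53+/+ KD libraries, against 15.4, 13.9 and 15.96 in p53+/+ scr libraries. The p53-/- KD libraries stand apart below all others, and the 2 p53+/+ groups overlap. CCNE1 was 0.595 of the scr level in p53-/- cells (log2 fold change -0.69, standard error 0.064, adjusted p = 1.89e-06). In p53+/+ cells its log2 fold change was -0.06 (95% interval -0.20 to 0.08, adjusted p = 0.452). The effects differed by -0.64 (95% interval -0.83 to -0.44, adjusted p = 0.000281), and 5.85% of all genes differed by more.

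CCNE2 is the less abundant E cyclin here. It was at 3.11, 3.17 and 2.90 FPKM in p53-/- KD libraries, against 3.02, 3.20 and 2.86 in p53-/- scr libraries. It was at 1.76, 1.53 and 1.32 FPKM in p53+/+ KD libraries, against 2.50, 2.29 and 2.09 in p53+/+ scr libraries. The p53-/- groups overlap fully, and the p53+/+ KD libraries lie below all the rest. CCNE2 was 0.670 of the scr level in p53+/+ cells (log2 fold change -0.38, standard error 0.075, adjusted p = 0.000814), and at these low levels the log2(FPKM + 1) scale understates the change. In p53-/- cells its log2 fold change was 0.01 (95% interval -0.15 to 0.17, adjusted p = 0.901). The effect was higher in p53-/- cells by 0.39 (95% interval 0.16 to 0.62, adjusted p = 0.0141). CCNE2 overlaps INTS8 and NDUFAF6 on the other strand, which were at 15.9 to 17.7 and 4.62 to 6.23 FPKM in the group means. The use of strand in the counting is not given in the sources used here, so the low values of CCNE2 are uncertain.

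CDK2, the kinase that both E cyclins bind, fell in both lines. It was at 26.2, 27.7 and 25.6 FPKM in p53-/- KD libraries, against 39.2, 42.7 and 41.6 in p53-/- scr libraries. It was at 19.3, 18.0 and 16.4 FPKM in p53+/+ KD libraries, against 30.9, 30.9 and 32.9 in p53+/+ scr libraries. As for CDK4, the 4 groups were separate and ran in the order p53-/- scr, p53+/+ scr, p53-/- KD and p53+/+ KD. CDK2 was 0.644 of the scr level in p53-/- cells (log2 fold change -0.62, standard error 0.057, adjusted p = 1.99e-06) and 0.568 in p53+/+ cells (log2 fold change -0.79, standard error 0.057, adjusted p = 1.98e-07). The difference of 0.17 did not pass (95% interval -0.01 to 0.35, adjusted p = 0.125). It passed without p53+/+ KD replicate 1 (adjusted p = 0.0404), and over all alternatives the adjusted p ran from 0.0404 to 0.304. CDK2 overlaps PMEL, a pigment cell gene on the other strand that was at 0.865 to 2.20 FPKM in the group means.

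CDC25A was the one member with calls in opposite directions in the lines. Genes outside the members, CDC25B, CCNA2 and CCNG2 among them, had such calls too, with values given below. CDC25A was at 13.6, 14.1 and 13.96 FPKM in p53-/- KD libraries, against 10.1, 10.7 and 10.1 in p53-/- scr libraries. It was at 4.86, 5.17 and 5.03 FPKM in p53+/+ KD libraries, against 5.40, 5.67 and 6.96 in p53+/+ scr libraries. The groups did not overlap, and p53+/+ scr replicate 3 lay above the other libraries of its group. CDC25A rose 1.35-fold in p53-/- cells (log2 fold change 0.40, standard error 0.070, adjusted p = 0.000340). In p53+/+ cells it was 0.835 of the scr level (log2 fold change -0.21, standard error 0.070, adjusted p = 0.0184), a call that rests on few libraries. Without p53+/+ scr replicate 3 the change was -0.12 (adjusted p = 0.0606), and without p53+/+ KD replicate 1 it was -0.19 (adjusted p = 0.0568). The call was also lost when low genes were kept (adjusted p = 0.0509), with only the p53+/+ libraries fitted (adjusted p = 0.0553) and without mitochondrial genes (adjusted p = 0.126), and the adjusted p ran from 0.00556 to 0.126 over all alternatives.

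The difference between the effects on CDC25A was 0.62 (95% interval 0.40 to 0.83, adjusted p = 0.000634). It passed in every alternative run, with adjusted p from 0.000275 to 0.00339. Between depleted cells of the lines, CDC25A was 2.77 times as high in p53-/- KD as in p53+/+ KD libraries (log2 fold change 1.31, adjusted p = 1.10e-08), and 2.31% of all genes differed by more. CDC25A is a known E2F target, and its promoter is printed because it holds an E2F word. The words searched on both strands were TTTCGCGC, TTTGGCGC, TTTCCCGC and TTTGCCGC, which 2.79% of the 35116 promoters hold at least 1 time. Among the 6 members with a promoter, CDC25A alone has such a word, 44 bases before its start. The window lies on the minus strand at chr3:48188418-48188667, and capitals mark the word.
CDC25A: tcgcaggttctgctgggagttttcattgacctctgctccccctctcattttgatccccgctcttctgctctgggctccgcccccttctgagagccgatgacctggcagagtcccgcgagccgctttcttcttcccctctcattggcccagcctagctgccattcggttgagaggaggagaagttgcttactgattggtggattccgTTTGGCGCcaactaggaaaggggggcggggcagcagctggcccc
The other words searched were the CCAAT box, the GC box GGGCGG and the cell cycle word TTTGAA (CHR), held by 32.0%, 42.6% and 13.3% of promoters. Among the 6 members with a promoter, none holds TTTGAA there, and the CCNE1 promoter holds 7 GC boxes. A word is a description of the sequence and no evidence of binding.

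SKP2 fell in both lines. It was at 9.82, 10.2 and 9.40 FPKM in p53-/- KD libraries, against 17.0, 14.5 and 18.8 in p53-/- scr libraries. It was at 6.59, 5.90 and 5.95 FPKM in p53+/+ KD libraries, against 8.96, 9.15 and 10.6 in p53+/+ scr libraries. The p53-/- KD libraries overlapped the p53+/+ scr libraries, while the p53-/- scr libraries lay above and the p53+/+ KD libraries below. SKP2 was 0.584 of the scr level in p53-/- cells (log2 fold change -0.71, standard error 0.086, adjusted p = 1.88e-05) and 0.641 in p53+/+ cells (log2 fold change -0.56, standard error 0.086, adjusted p = 0.000113). The difference of -0.15 did not pass (95% interval -0.41 to 0.12, adjusted p = 0.377).

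**Figure D2:**
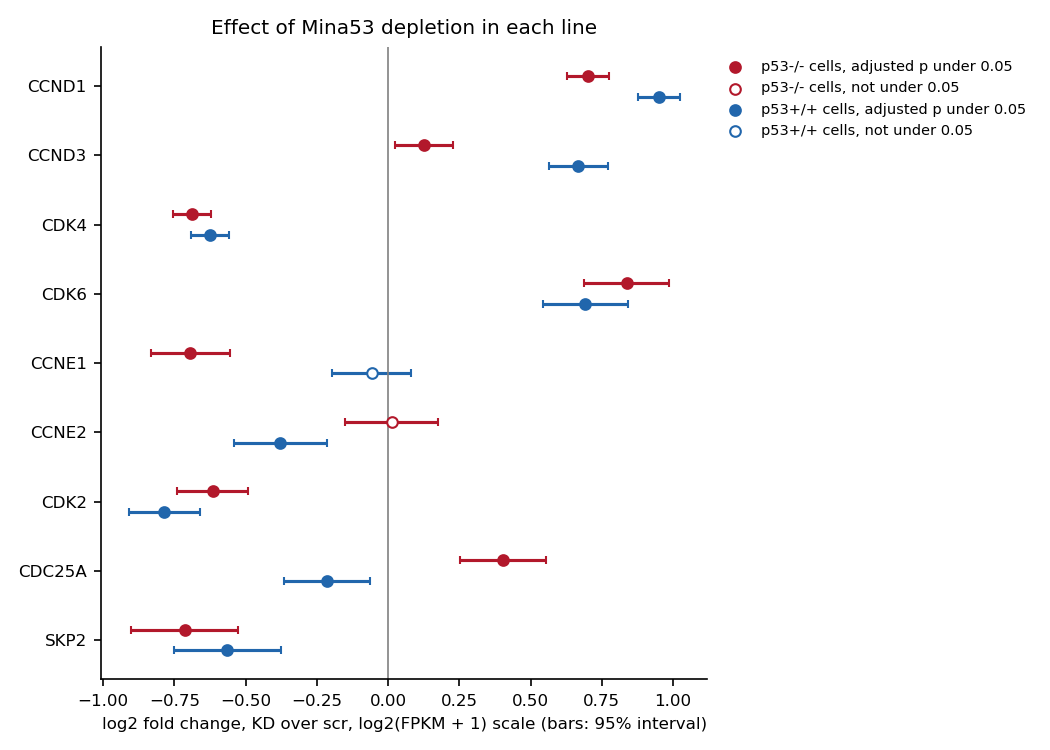
Log2 fold change of KD over scr on the log2(FPKM + 1) scale (horizontal axis) for the 9 members that passed the filter, in p53-/- cells (red, upper) and p53+/+ cells (blue, lower). Bars are 95% intervals from limma and open points did not pass the threshold. The intervals of CCND1, CCND3, CCNE1, CCNE2 and CDC25A lie apart between the lines, with CDC25A on opposite sides of 0.

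The direct test of the difference between the lines called 5 of 9 members, of which 2 responded more positively and 3 more negatively in p53-/- cells. Over all genes it called 32.9%, 16.7% higher and 16.2% lower. The higher effects were those of CDC25A and CCNE2, and the lower ones those of CCND1, CCND3 and CCNE1. CDK2, CDK4, CDK6 and SKP2 did not pass, and the intervals given above bound their differences to within 0.41 (log2). Without mitochondrial genes, calls over all genes numbered 1817 higher and 2791 lower, against 2286 and 2225 with them. The fall of RIOX2 also differed between the lines, by the -0.55 given above, and its part in these differences was not tested.

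Most members were higher in p53-/- than in p53+/+ cells with no depletion. Between the scr groups 7 of 9 were higher and 0 lower, where 63.4% of all genes were called, 36.7% higher and 26.6% lower. Scaled by trimmed means, the calls over all genes were 4526 higher and 4034 lower, against 5045 and 3656. The largest were CCND3 (log2 fold change 0.86), SKP2 (0.75, adjusted p = 1.03e-05) and CDC25A (0.69, adjusted p = 3.27e-06). CDK4 (0.46), CDK2 (0.37), CCND1 (0.36) and CCNE2 (0.29) were higher by less. CCNE1 (0.13, adjusted p = 0.0937) and CDK6 (0.15, adjusted p = 0.0775) did not pass, although neither gene's groups overlapped. CDK6 passed without p53-/- KD replicate 3 (adjusted p = 0.0405) or p53-/- scr replicate 1 (0.0398), with adjusted p from 0.0398 to 0.203 over all alternatives.

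Among depleted cells all 9 members were called between the lines, where 64.3% of all genes were called, 37.0% higher and 27.3% lower. Scaled by trimmed means, the calls over all genes were nearly even, 4442 higher and 4239 lower, against 5076 and 3753. In p53-/- KD cells 8 were higher and CCNE1 was lower (log2 fold change -0.51, adjusted p = 2.05e-05). After CDC25A, the largest gap was that of CCNE2, which was 1.99 times as high in p53-/- KD as in p53+/+ KD libraries (log2 fold change 0.68, adjusted p = 5.85e-06). SKP2 (0.60), CDK2 (0.54), CDK4 (0.40), CCND3 (0.32) and CDK6 (0.29) followed. CCND1 had the smallest gap (0.11), a call that the scaling by trimmed means ended (adjusted p = 0.163). These genotype comparisons share libraries with the depletion comparisons, so their values are not independent.

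The balance between cyclins and kinases changed with these levels. The ratios below are of FPKM, within a library, and are given as descriptions with no test. D cyclins summed to 3.16 ± 0.0498 times CDK4 plus CDK6 in p53-/- KD and 1.43 ± 0.0476 times in p53-/- scr libraries. The ratio was 3.77 ± 0.0606 in p53+/+ KD and 1.44 ± 0.0675 in p53+/+ scr libraries (SD, n = 3). The scr groups of the lines overlapped in this ratio and the KD groups did not.

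The make-up of the CDK4 and CDK6 pool moved in the same way in both lines. CDK4 was 4.80 ± 0.491 times CDK6 in p53-/- KD and 14.96 ± 1.40 times in p53-/- scr libraries. It was 4.53 ± 0.327 times in p53+/+ KD and 12.2 ± 0.723 times in p53+/+ scr libraries. CDK6 thereby made up 17.3% ± 1.40 of the pool in p53-/- KD and 6.30% ± 0.526 in p53-/- scr, 18.1% ± 1.05 in p53+/+ KD and 7.58% ± 0.404 in p53+/+ scr libraries. The summed pool was still lower after depletion, at 64.4 ± 0.671 FPKM in p53-/- KD and 92.2 ± 1.99 in p53-/- scr, 49.1 ± 0.609 in p53+/+ KD and 67.7 ± 1.15 in p53+/+ scr libraries.

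The summed E cyclins and CDK2 kept pace in p53-/- cells and not in p53+/+ cells. Most of the sum is CCNE1, and CCNE2 alone did not fall with CDK2 in p53-/- cells. CCNE1 was 3.23 ± 0.215 times CCNE2 in p53-/- KD and 5.49 ± 0.445 times in p53-/- scr libraries. E cyclins summed to 0.488 ± 0.0140 times CDK2 in p53-/- KD and 0.477 ± 0.0125 times in p53-/- scr libraries, and these groups overlap. The ratio was 0.896 ± 0.0911 in p53+/+ KD and 0.551 ± 0.0266 in p53+/+ scr libraries, which do not overlap. CDKN1A stood at 1.18 ± 0.0810 times CDK2 in p53-/- KD and 0.348 ± 0.0284 times in p53-/- scr libraries. In p53+/+ cells it stood at 20.6 ± 1.89 times CDK2 in KD and 3.79 ± 0.160 times in scr libraries. The 10 members together summed to 331 ± 4.92 FPKM in p53-/- KD, 312 ± 1.93 in p53-/- scr, 279 ± 4.70 in p53+/+ KD and 229 ± 6.02 in p53+/+ scr libraries, with CCND1 as the largest part.

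**Figure D3:**
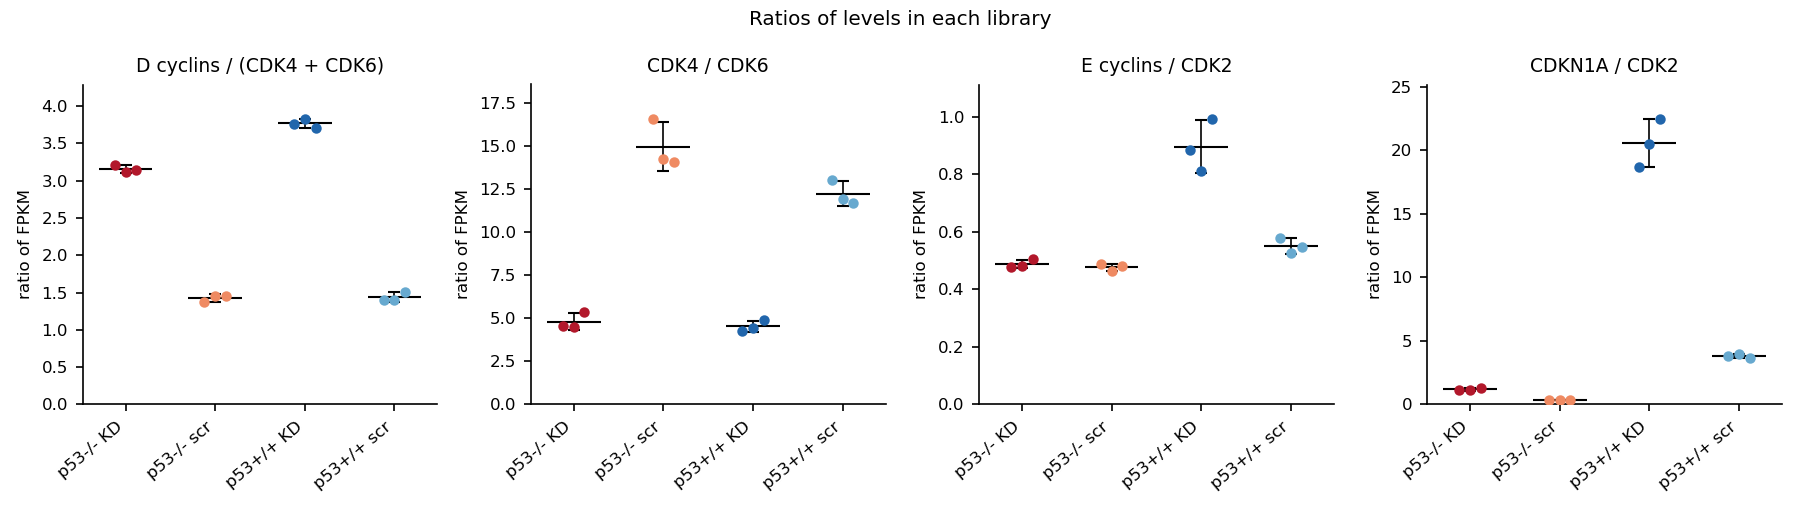
Ratios of FPKM within each library (vertical axes, linear, from 0) by group, with lines for means and bars for SD (n = 3). The D cyclins to kinases ratio is between 3.12 and 3.83 in KD libraries and between 1.37 and 1.51 in scr libraries of both lines, and the E cyclins to CDK2 ratio is higher in p53+/+ KD libraries than in the rest.

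Inhibitors of these kinases had more rises than falls in p53-/- cells and as many of each in p53+/+ cells. The threshold called 28.9% of all genes higher and 29.9% lower in p53-/- cells. The shares in p53+/+ cells were 28.5% and 32.2%. Of 7 CDK inhibitors of the CIP/KIP and INK4 families, 4 rose and 1 fell in p53-/- cells, with a median log2 fold change of 0.94 beside -0.0028 over all genes, and 3 rose and 3 fell in p53+/+ cells, with a median of 0.0066 beside -0.016. CDKN2B (p15), which binds CDK4 and CDK6, averaged 7.94 FPKM in p53-/- KD and 2.39 in p53-/- scr libraries (log2 fold change 1.40, adjusted p = 4.33e-09). In p53+/+ cells it averaged 6.99 FPKM in KD and 3.56 in scr libraries (log2 fold change 0.81, adjusted p = 3.22e-07). CDKN1B (p27), the inhibitor that SKP2 targets, averaged 22.9 FPKM in p53-/- KD and 11.5 in p53-/- scr libraries (log2 fold change 0.94, adjusted p = 9.74e-08). In p53+/+ cells CDKN1B averaged 9.51 FPKM in KD and 9.43 in scr libraries (log2 fold change 0.01, adjusted p = 0.935), and the difference of 0.93 passed (adjusted p = 1.35e-05). CDKN1C (p57) rose by 1.27 in p53-/- and 0.65 in p53+/+ cells on the log2 scale, and CDKN1A rose by 1.07 and 1.61. Among the falls, CDKN2C (p18) changed by -0.65 in p53+/+ cells (adjusted p = 1.69e-06). In p53-/- cells CDKN2C changed by -0.04 and did not pass (adjusted p = 0.602).

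E2F factors and pocket proteins, the targets of these kinases and the factors they free, had more falls than rises. Of 13 tested, 2 rose and 7 fell in p53-/- cells, where 28.9% of all genes rose and 29.9% fell. In p53+/+ cells 2 rose and 10 fell, where 28.5% of all genes rose and 32.2% fell. E2F4, an E2F that binds pocket proteins in resting cells, averaged 18.1 FPKM in p53-/- KD and 56.5 in p53-/- scr libraries (log2 fold change -1.59, adjusted p = 2.08e-10). In p53+/+ cells it averaged 21.4 FPKM in KD and 42.6 in scr libraries (log2 fold change -0.96, adjusted p = 8.66e-09). E2F2 changed by -0.75 in p53-/- and -0.88 in p53+/+ cells, and TFDP1, the partner of E2F proteins in DNA binding, by -0.39 and -0.60. The median over the list was -0.22 in p53-/- and -0.30 in p53+/+ cells, beside -0.0028 and -0.016 over all genes.

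Genes that E2F switches on at S phase entry fell in 17 of 22 cases in p53-/- cells and in 22 of 22 in p53+/+ cells, and 0 rose in either line, beside 29.9% of all genes lower in p53-/- and 32.2% in p53+/+ cells. Their median log2 fold change was -0.47 in p53-/- and -0.89 in p53+/+ cells, beside -0.0028 and -0.016 over all genes. RRM2, a ribonucleotide reductase subunit, changed by -1.996 in p53-/- and -2.23 in p53+/+ cells, and the helicase gene MCM2 by -0.99 in p53-/- and -1.34 in p53+/+ cells. The cyclins and kinase of S and M phase had the largest median difference between the lines of the lists tested (0.79), with 2 of 5 higher and 3 lower in p53-/- cells and 5 of 5 lower in p53+/+ cells. CCNA2, the cyclin that takes over CDK2 from the E cyclins, averaged 38.8 FPKM in p53-/- KD and 32.7 in p53-/- scr libraries (log2 fold change 0.24, adjusted p = 0.000547). In p53+/+ cells CCNA2 averaged 12.3 FPKM in KD and 27.7 in scr libraries (log2 fold change -1.11, adjusted p = 1.47e-09), and the effects differed by 1.35 (adjusted p = 1.09e-07).

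The list of the CDK-activating kinase and of CDK phosphorylation holds kinases and phosphatases, the cyclin CCNH, the assembly factor MNAT1 and the chaperone CDC37. Of its 8 genes, 4 rose and 1 fell in p53-/- cells (28.9% and 29.9% of all genes) and 1 rose and 5 fell in p53+/+ cells (28.5% and 32.2%). CCNH and CDC37 were among the rises in p53-/- cells, and CDC37 was the rise in p53+/+ cells. The median log2 fold change was 0.08 in p53-/- and -0.27 in p53+/+ cells. WEE1, the kinase that opposes CDC25 phosphatases, averaged 20.2 FPKM in p53-/- KD and 11.3 in p53-/- scr libraries, and 7.14 in p53+/+ KD and 8.93 in p53+/+ scr libraries. Its effects differed by 1.07 (adjusted p = 9.58e-07), in the same direction as those on CDC25A. PKMYT1, a membrane-bound kinase with the same substrate, changed by -1.26 in p53-/- and -1.46 in p53+/+ cells. CDC25B rose by 0.15 in p53-/- cells (adjusted p = 0.00606) and changed by -0.47 in p53+/+ cells (adjusted p = 8.97e-07). Its effects differed by 0.62 (adjusted p = 1.28e-05). CDC25C was at 0.04 in p53-/- cells (adjusted p = 0.668) and changed by -0.90 in p53+/+ cells (adjusted p = 4.47e-07). The effects on CDC25C differed by 0.94 (adjusted p = 4.31e-05). Of 14 genes of cyclin degradation, 5 rose and 6 fell in p53-/- cells and 4 rose and 6 fell in p53+/+ cells, beside the same shares of all genes. Their median log2 fold change was -0.054 in p53-/- and 0.032 in p53+/+ cells, near the -0.0028 and -0.016 over all genes. CKS1B, the small subunit that SKP2 needs to bind p27, changed by -0.11 (adjusted p = 0.0393) in p53-/- and -0.70 (adjusted p = 3.80e-08) in p53+/+ cells. FBXO31, an F-box protein that targets cyclin D1, rose by 0.56 in p53+/+ cells. In p53-/- cells FBXO31 was at 0.13 (adjusted p = 0.0550). Other genes of this list went differently. FBXO4 changed by -0.33 in p53+/+ cells (adjusted p = 0.00639) and was at -0.17 in p53-/- cells (adjusted p = 0.122). AMBRA1 was at 0.06 in p53+/+ cells (adjusted p = 0.383) and changed by -0.25 in p53-/- cells (adjusted p = 0.00140). FBXW7 rose by 0.43 in p53-/- and 0.62 in p53+/+ cells.

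**Figure D4:**
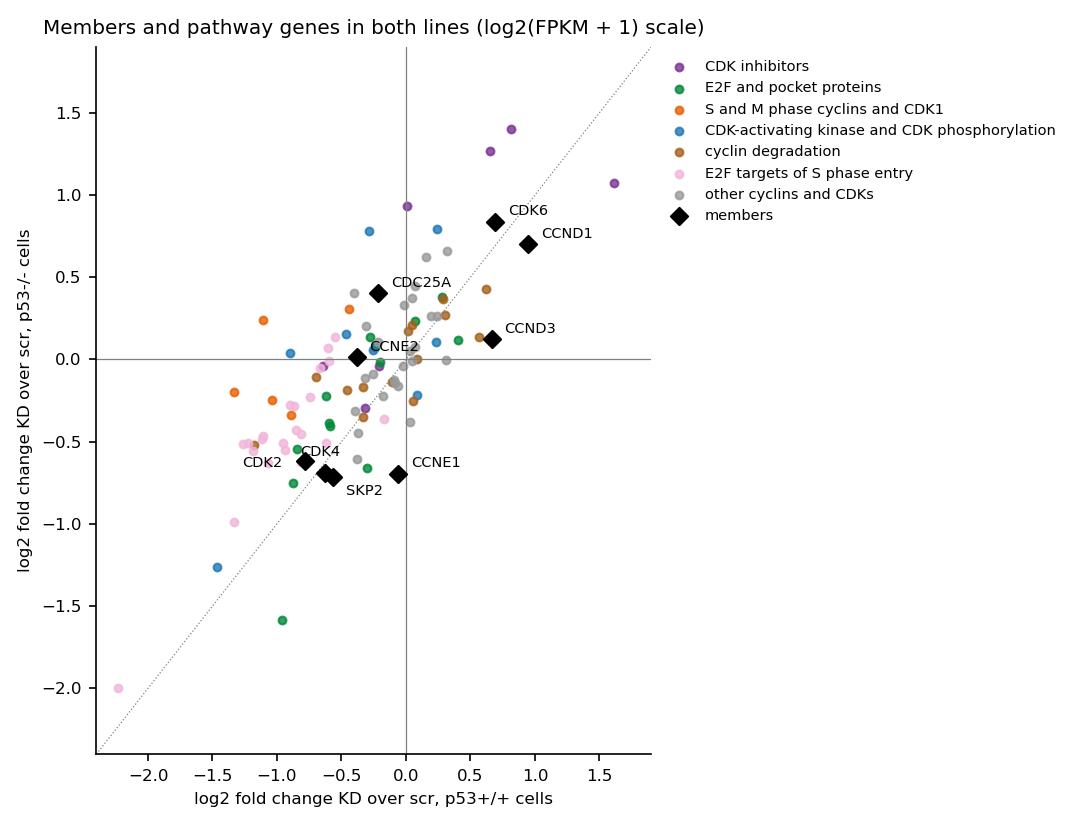
Log2 fold change of KD over scr in p53+/+ cells (horizontal axis) and in p53-/- cells (vertical axis) for the 9 tested members (black diamonds) and the tested genes of 7 lists of cell cycle genes (coloured points), on the log2(FPKM + 1) scale. The dotted line marks equal effects, on which CDK4, CDK2, SKP2 and CDK6 come close, while CDC25A, CCNE2 and the S and M phase cyclins lie above it and CCND3 and CCNE1 below it.

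The profiles of several members over the 12 libraries were shared by many genes. Likeness was measured as Pearson's r on log2(FPKM + 1), and since the libraries form 4 groups it mainly compares group means. CCND1 was most like SLC36A1 (0.996), TUBA1A (0.994) and TIMP2 (0.993), and 638 of 13727 other genes had r over 0.9 with it. CDK6 was most like ATP6V1G1 (0.996), CFL2 (0.993) and MTMR9 (0.992). CDK4 was most like SART3 (0.996), IRAK1 (0.995) and HNRNPA0 (0.994), and CDK2 was most like PA2G4 (0.994), RNF135 (0.993) and RBL1 (0.992). SKP2 was most like TRIM66 (0.985), NOP56 (0.985) and PDE4B (0.984). CDC25A was most like DRG1 (0.989), NSMAF (0.988) and OAS3 (0.988), CCND3 like G6PC3 (0.995), SLC1A5 (0.990) and NDUFB7 (0.989), and CCNE2 like USP1 (0.984), DLEU2 (0.982) and AURKA (0.981). CCNE1 had the fewest genes like it, with 57 over 0.9, led by CNTNAP3 (0.963), ASPHD2 (0.960) and VDR (0.958).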

How the data were processed

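Poly(A) RNA of 12 libraries was measured by Illumina HiSeq sequencing, as the series' design text states. The authors deposited values for 36615 symbols with no unit in the header. They were read as FPKM, because the deposited values are not whole, sum to between 348822 and 372821 per library, and give ND4L and ND4, of different length, a ratio of 0.970 to 1.06. Per the submitters' processing notes hg19 was used, with aligner, counter and annotation not given in the sources used here. Steps of whole reads are missing among low values, so depth stays unknown and counting intervals are not given. A column prefix of KO was taken to mean p53-/- cells. No 2 libraries were identical.

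Genes reaching 1 FPKM in 3 or more libraries were tested with limma 3.58.1 (R 4.3.3) on log2(FPKM + 1), with a variance trend and a mean for each of the 4 groups, leaving 8 residual degrees of freedom. Fold changes in log2 are on that scale, which understates changes of low genes, and n-fold values are ratios of mean FPKM. The 5 contrasts were adjusted over 13728 genes each. Replicate numbers were not taken to pair libraries, and a fit with them as a block was among the alternatives. Alternatives were 8 settings and 12 fits that each left out 1 library. Members, gene lists and tests were chosen with earlier results of these data known. From each list at most 4 genes with the smallest adjusted p in a comparison were named, with their values in the other line. MYC was added after its values were seen. A check of the genotype by its own gene is not reported here.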

Additional observations from a re-analysis of the deposited data

Results flagged for a closer look

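A direct limma test of the difference between the lines in the effect of depletion (p53-/- minus p53+/+) called 32.9% of all genes. Of the 9 members tested it called 5. The differences were -0.25 for CCND1 (SE 0.048, adjusted p = 0.00216), -0.54 for CCND3 (SE 0.067, adjusted p = 0.000108) and -0.64 for CCNE1 (SE 0.090, adjusted p = 0.000281). They were 0.39 for CCNE2 (SE 0.105, adjusted p = 0.0141) and 0.62 for CDC25A (SE 0.099, adjusted p = 0.000634). For CCND1 and CCND3 both lines changed upward by different amounts. For CCNE1 and CCNE2 a single line passed the threshold, and CDC25A had opposite signs. Several alternatives ended the call of CCND3 in p53-/- cells (adjusted p up to 0.141). Several also ended that of CDC25A in p53+/+ cells (adjusted p up to 0.126). RIOX2 fell further in p53-/- cells by 0.55 on the log2 scale, and its part in these differences was not tested.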

How the results depend on the processing

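The counts of members called and of all genes called stayed within 1.5 times their values in all 5 comparisons under every alternative run. Of 891 refitted log2 fold changes of members, 869 kept their direction and side of the threshold, 15 lost the call, 3 gained it and 4 changed sign. The 4 were not called in the first place. They were CCNE1 in p53+/+ cells without mitochondrial genes (0.034) and without p53+/+ KD replicate 2 (0.0070), and CCNE2 in p53-/- cells without p53-/- KD replicate 2 (-0.0067) and without p53-/- scr replicate 3 (-0.018), and the cause was not tested. Over the fits that left out 1 library these log2 fold changes ran from -0.11 to 0.0070 for CCNE1 and from -0.018 to 0.043 for CCNE2. Leaving out 1 library gave 7 to 8 members called for depletion in either line, 5 to 6 for the difference, 7 to 8 between scr groups and 8 to 9 between KD groups. Over all genes those fits called 7277 to 8077 in p53-/- depletion, 7618 to 8350 in p53+/+ depletion, 3805 to 4428 for the difference, 7909 to 8701 between scr groups and 8128 to 8849 between KD groups. A scaling by trimmed means or without mitochondrial genes moved the median over all genes by at most 0.077. Same-numbered libraries of KD and scr groups deviated with r of -0.102 to -0.0417 in p53-/- and -0.0589 to 0.0654 in p53+/+ cells, so the numbers were not taken to pair them, and p53+/+ KD replicate 1 correlated more with p53+/+ scr replicate 3 than with replicate 1. With the replicate number as a block (the replicate block), 7 members were called in p53-/- depletion, where CCND3 lost its call (adjusted p = 0.0628), and 8 in p53+/+ depletion. The block changed no other call of a member. Depth is unknown, so what it limits could not be measured; CCND2 and CCNE2 have the lowest levels.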

Other observations

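Other cyclins and CDKs, many of which act outside G1 or in transcription, included many genes with small changes. Of 25 tested, 9 rose and 7 fell in p53-/- cells and 4 rose and 9 fell in p53+/+ cells, with a median log2 fold change of -0.0036 in p53-/- and -0.024 in p53+/+ cells. Over all genes, 58.8% were called in p53-/- and 60.7% in p53+/+ cells. CCNT1, the cyclin of the transcription kinase CDK9, averaged 13.2 FPKM in p53-/- KD and 9.43 in p53-/- scr libraries (log2 fold change 0.45, limma adjusted p = 8.46e-06). In p53+/+ cells CCNT1 averaged 10.2 FPKM in KD and 9.69 in scr libraries (log2 fold change 0.07, adjusted p = 0.260), and the effects differed by 0.38 (adjusted p = 0.00147). CDK9 fell in both lines, by 0.31 in p53-/- and by 0.39 in p53+/+ cells on the log2 scale. CCNG2, an atypical cyclin linked to growth arrest, rose by 0.41 in p53-/- cells and fell by 0.40 in p53+/+ cells, and the difference of 0.81 passed (adjusted p = 0.00119). CCNG1, a known p53 target, averaged 13.8 FPKM in p53-/- scr and 32.9 in p53+/+ scr libraries (log2 fold change -1.20, adjusted p = 7.09e-08).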
